A study of Mus musculus with 2 samples.

Results

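The sarcomere is the contractile unit of heart and skeletal muscle. Measured here in aortic wall RNA were 44 genes of that unit and of the calcium store and energy supply that serve it. The members were taken by gene name: every gene spot on both arrays whose name in the files, or its current symbol, was on the list. All 44 were found, on 80 probes, and 43 could be compared between the aortic arch and the thoracic aorta, among 22811 genes compared in all. Myh3, the embryonic skeletal myosin heavy chain, was the exception, as neither RNA was well above background on both arrays at either of its probes.

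Both RNAs came from the same 6 apoE-/- mice, a strain without apolipoprotein E that is prone to atherosclerosis. They were 3 males and 3 females aged 16 weeks (4 months), and no mice of another genotype enter the comparison. The arch RNA is 1 pool of the 6 aortic root and arch segments, each with the first 2 mm of the thoracic aorta, and the labels call it prone to atherosclerosis. The thoracic RNA is 1 pool of the next 6 mm of the same aortas, which the labels call resistant. All vessels had been flushed with the detergent Triton X-100 to strip the endothelium. Array 1 had the arch in green (Cy3) and the thoracic aorta in red (Cy5), and array 2 had the dyes exchanged.

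Contraction in striated muscle comes from myosin heads pulling on thin filaments of actin. Troponin and tropomyosin on the thin filament open the sites for myosin when calcium leaves the sarcoplasmic reticulum, the internal calcium store. Most parts of this machine exist as isoforms made by different genes, so that atrium, ventricle, slow muscle and fast muscle can be told apart by which isoform they express. Smooth muscle, the main tissue of the aortic media, contracts with other myosin and actin isoforms and has no troponin.

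Selected promoters show how genes with cardiac expression differ at their starts. Each window holds 250 bases before and 50 after the first RefSeq start site listed, on build GRCm38.p6, 5′ to 3′ on the gene's strand. Myl2 and Tnnt2 each have 2 starts listed, Myl7 and Tnni3 have 1, and further starts were not searched. Myl7, Tnnt2 and Tnni3 are shown because their signals were higher in the arch, and Myl2 because it is the ventricular counterpart of Myl7. The Myl7 window is chr11:5898733-5899032 on the minus strand, and the Tnnt2 window is chr1:135836084-135836383 on the plus strand. The Tnni3 window is chr7:4522479-4522778 on the minus strand, and the Myl2 window is chr5:122092474-122092773 on the plus strand. Capitals mark letters that match, on either strand, a CArG box, a MEF2 site, an MCAT element, a GATA site or an Nkx2-5 site.
Myl7: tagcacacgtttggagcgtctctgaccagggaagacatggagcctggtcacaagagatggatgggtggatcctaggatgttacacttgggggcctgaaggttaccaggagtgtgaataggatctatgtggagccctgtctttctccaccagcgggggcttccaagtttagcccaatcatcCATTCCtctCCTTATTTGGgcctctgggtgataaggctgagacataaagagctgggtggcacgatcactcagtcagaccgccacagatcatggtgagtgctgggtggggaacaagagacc
Tnnt2: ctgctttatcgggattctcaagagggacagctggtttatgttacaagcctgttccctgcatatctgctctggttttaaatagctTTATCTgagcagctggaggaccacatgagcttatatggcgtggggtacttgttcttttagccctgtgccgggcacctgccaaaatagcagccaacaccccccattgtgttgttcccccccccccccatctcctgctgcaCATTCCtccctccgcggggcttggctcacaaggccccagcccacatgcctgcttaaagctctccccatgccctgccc
Tnni3: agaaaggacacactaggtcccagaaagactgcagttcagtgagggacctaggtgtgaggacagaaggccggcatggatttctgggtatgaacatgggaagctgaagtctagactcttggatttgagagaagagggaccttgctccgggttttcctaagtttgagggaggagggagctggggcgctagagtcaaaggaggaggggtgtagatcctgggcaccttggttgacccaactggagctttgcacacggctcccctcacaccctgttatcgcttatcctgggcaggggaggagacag
Myl2: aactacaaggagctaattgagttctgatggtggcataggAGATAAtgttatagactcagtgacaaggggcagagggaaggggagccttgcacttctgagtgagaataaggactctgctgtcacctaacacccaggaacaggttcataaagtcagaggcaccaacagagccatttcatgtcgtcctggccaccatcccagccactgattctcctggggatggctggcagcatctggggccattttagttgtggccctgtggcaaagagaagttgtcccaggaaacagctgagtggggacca

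In the Myl7 window the capitals are an MCAT element followed by a CArG box, the letters bound by serum response factor. The Tnnt2 window holds a GATA site and, nearer the start, an MCAT element, and the Myl2 window holds a GATA site alone. Only the letters AGATAA counted as a GATA site, so other letters around gata, such as tgataa in the Myl7 window, stay in lower case. No match was found in the Tnni3 window, which says only that these letters are not in it. Windows were found for 37 members, 6 of them among the 7 genes that passed the size rule towards the arch. A CArG box was in 1 of those 6, in 6 of the other 31 and in 1.57% of 27018 promoters of the same length. An MCAT element (CATTCC) was in 2 of the 6, in 11 of the 31 and in 14.6% of all promoters. A MEF2 site was in 1 of the 6 (Myh8, where it overlaps the letters TATAAA), in 6 of the 31 and in 3.26% of all promoters. The GATA letters (AGATAA) were in 1 of the 6, 3 of the 31 and 11.4% of all promoters. The Nkx2-5 letters (TNAAGTG) were in 0 of the 6, 1 of the 31 and 11.5% of all promoters. These matches describe the letters of the windows and were not tested for binding.

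A gene was counted as different when the mean of its arrays was at least 2-fold and each array alone gave 1.5-fold or more the same way. By this size rule 7 of the 43 members were higher in the arch, where 0.473% of all genes compared passed (108 of 22811). Towards the thoracic aorta 0 members passed, where 0.145% of all genes did (33 of 22811). The 7 were Myl7, Tnnt2, Sln, Tnni3, Myh8, Mb and Myl4. Their isoform classes were uneven: 3 of 3 atrial genes, 2 of 8 genes of both heart chambers, 1 of 10 genes shared by striated muscles, 1 of 1 developmental gene compared, 0 of 5 ventricular and slow muscle genes, 0 of 14 fast skeletal genes and 0 of 2 slow skeletal genes. The classes are loose. Tnnc1 serves heart and slow muscle and Pln the cardiac calcium pump, so 0 of 5 is not a count of genes particular to the ventricle. Ryr1 and Casq1 of the fast class belong to the skeletal store in general. Brightness differed between the classes as well. Of the ventricular class Myl2, Tnnc1 and Pln had every signal under 2 times the negative control spots. So did Myh1, Tnnt3, Actn3, Mybph, Myoz1, Ryr1 and Atp2a1 of the fast class and Tnni1 of the slow class. At such signals a 2-fold difference could hardly be reached here, so those genes add little to the 0 counts of their classes. With a limit of 1.5-fold on the mean, Pln, Myl1 and Myh4 joined to make 10 higher in the arch, where 1.4% of all genes passed, and 1 was higher in the thoracic aorta (Mybpc2), where 0.456% of all genes passed. Over all 43 the median log2 ratio (arch over thoracic) was 0.05, beside -0.01 over all genes compared. Of the members 25 lay above 0 and 18 below, so 58.1% lay above, beside 47.3% of all genes compared.

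With 1 pool per segment and both arrays carrying the same pools, there is no replicate of mice and no p-value. Each SD given is the spread between 2 arrays and is technical. Its median was 0.08 log2 units over the members and its highest value was 0.23, for Actc1. Signals are normalised spot intensities without a unit, in which unspecific binding also counts, and the 314 negative control spots had medians of 55.6 to 58.1 on that scale. Signals of different probes are not set against each other. For the marker lists they are summed within each pool, and such sums weigh the brightest probes most.

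**Figure D1:**
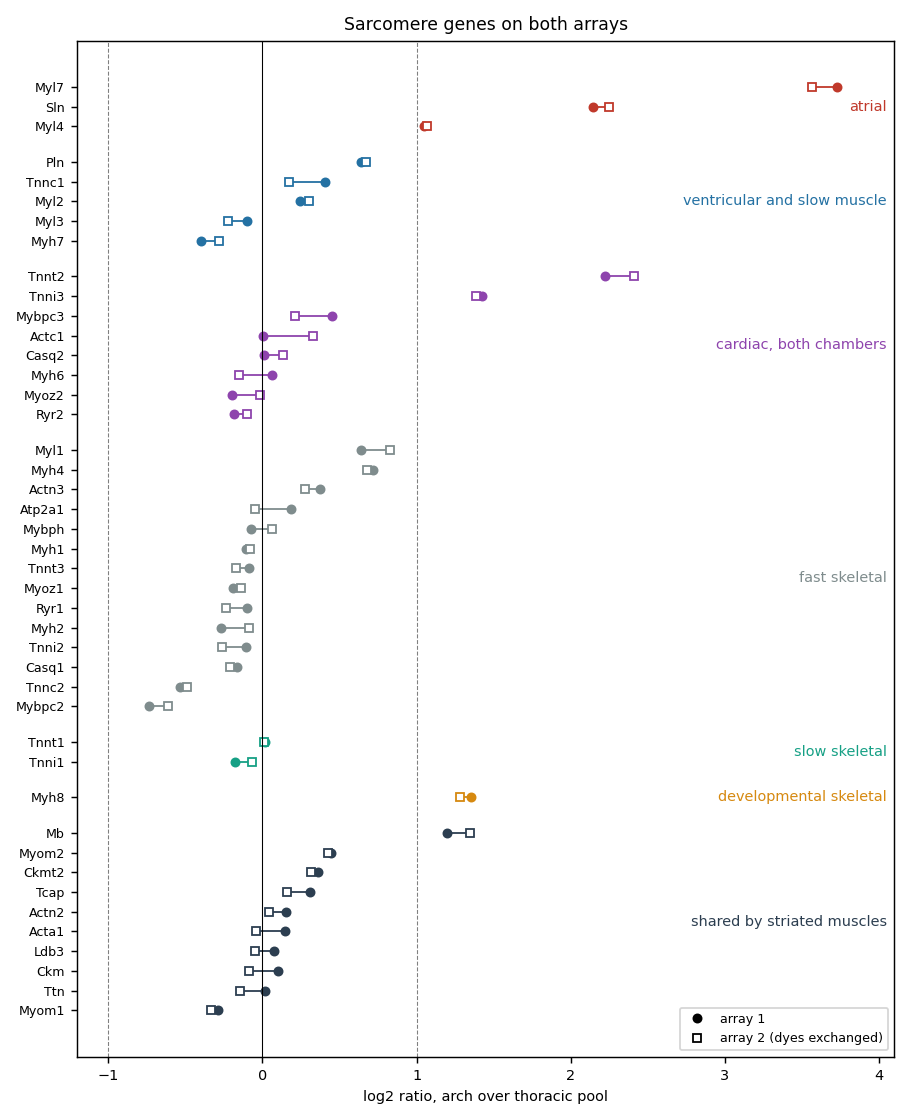
Log2 ratio, arch over thoracic (x axis), of the 43 sarcomere genes compared, grouped by isoform class; filled circles are array 1, open squares array 2, lines join the 2 arrays, and dashed lines mark 2-fold. Myl7, Tnnt2, Sln, Tnni3, Myh8, Mb and Myl4 lie past 1 on both arrays, and 0 genes lie past -1.

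All 3 atrial genes were higher in the arch pool. Myl7, the regulatory myosin light chain of the atrium, had signals of 3137 and 2910.0 in the arch on arrays 1 and 2, against 236 and 246 in the thoracic aorta. The arch was 12.5-fold higher, with a log2 ratio of 3.65 ± 0.12 (SD, n = 2 arrays), and both arch signals were far above both thoracic signals. Sln encodes sarcolipin, a small protein that inhibits the calcium pump of the store and is made in mouse mainly by the atrium. It had 681 and 743 in the arch, against 154 and 157 in the thoracic aorta, a 4.58-fold difference (log2 ratio 2.20 ± 0.07). Myl4, the essential light chain of the atrium and of fetal muscle, had 634 and 612 in the arch, against 307 and 292 in the thoracic aorta. Its 2.08-fold difference (1.06 ± 0.01) lay just past the limit.

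A second Myl4 probe gave 545 and 555 in the arch, against 207 in the thoracic aorta on both arrays, a 2.65-fold difference, so that both Myl4 probes passed. The probes of Sln were at odds. A second probe for the same transcript had 74.8 and 75.3 in the arch, against 78.6 and 72.8 in the thoracic aorta, with a log2 ratio of -0.01 ± 0.08. That probe was dim, though above background, and showed no difference on either array. Taking the median of both probes gave a log2 ratio of 1.09 for Sln. Without background subtraction Myl4 had a log2 ratio of 0.99 and no longer passed, leaving 6 members higher in the arch where 0.355% of all genes were.

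None of the 5 ventricular and slow muscle genes passed. Myl2, the regulatory light chain of the ventricle and of slow fibres, had 88.5 and 96.5 in the arch, against 74.7 and 78.3 in the thoracic aorta, and a log2 ratio of 0.27 ± 0.04. Its signal was near the negative controls in both pools. Myl3, the essential light chain of the same muscles, had 338 and 461 in the arch, against 362 and 539 in the thoracic aorta (-0.16 ± 0.09). Both arrays put Myl3 lower in the arch, at log2 ratios of -0.10 and -0.22, while the second Myl3 probe gave 0.05. Myh7, the slow and ventricular myosin heavy chain, had 113 and 119 in the arch, against 148 and 145 in the thoracic aorta. Its log2 ratio of -0.34 ± 0.08 was repeated by a second probe at -0.33, which puts the Myh7 signals on both probes below the thoracic ones, at 1.27-fold and 1.26-fold.

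Tnnc1, the calcium-binding troponin C of heart and slow muscle, had a log2 ratio of 0.29 ± 0.17. Pln encodes phospholamban, the inhibitor of the cardiac calcium pump. It had 110.4 and 115 in the arch, against 71.0 and 72.0 in the thoracic aorta, and a log2 ratio of 0.66 ± 0.03 (1.57-fold). The arch signals were the higher ones on both arrays, but by less than the 2-fold limit. In the deposited log ratios, made from the scanner software's own background-subtracted signals, the mean for Pln was 1.68 and passed, among 10 members higher in the arch where 1.02% of all genes were. The other genes of the class had 0.78 (Myl2), 0.64 (Tnnc1), -0.19 (Myl3) and -0.55 (Myh7) in those log ratios.

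Among the genes used by both heart chambers, the cardiac troponins I and T passed. Tnnt2, which anchors the troponin complex to tropomyosin, had 1410.2 and 1365 in the arch, against 302 and 256 in the thoracic aorta. The arch was 4.98-fold higher (2.32 ± 0.13). The other probe under that name, for an embryo head clone of unknown product, was not above background. Tnni3, the inhibitory subunit, had 347 and 328 in the arch, against 129 and 125 in the thoracic aorta, a 2.65-fold difference (1.41 ± 0.03). Its second probe, for the same transcript, gave 267 and 243 in the arch, against 119 in the thoracic aorta on both arrays (2.14-fold). Both arrays read the same 2 pools.

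The other 6 genes of this class did not pass. Actc1, cardiac actin, had 21183 and 24040.0 in the arch, against 21108 and 19111 in the thoracic aorta (0.17 ± 0.23), so its arrays differed by more than the pools did. Actin messages are close in sequence, and the smooth muscle actin Acta2 was saturated in this tissue, so which actin gave the Actc1 and Acta1 signals is uncertain. Mybpc3, cardiac myosin-binding protein C, had 248 and 215 in the arch, against 181 and 186 in the thoracic aorta (0.33 ± 0.17). Ryr2, the calcium release channel of the heart, had a log2 ratio of -0.14 ± 0.06, Casq2, its store's calcium-binding protein, 0.07 ± 0.08, and Myoz2, a Z-disc protein, -0.11 ± 0.13.

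Myh6, the α-myosin heavy chain of the mouse heart, depended on the probe. Its brightest probe, from a brain cortex clone described as genomic DNA that contains the gene, had 141 and 144 in the arch, against 136 and 159.9 in the thoracic aorta (-0.05 ± 0.15). The pair of probes for the Myh6 transcript had log2 ratios of 0.31 ± 0.02 and 0.30 ± 0.06. The first of them had 78.1 and 85.6 in the arch, against 63.7 and 68.7 in the thoracic aorta, close to the negative controls. In the deposited log ratios these transcript probes had means of 1.14 and 1.04, while the clone probe had -0.07. At signals so near background the size of the Myh6 difference changed with the background correction.

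**Figure D2:**
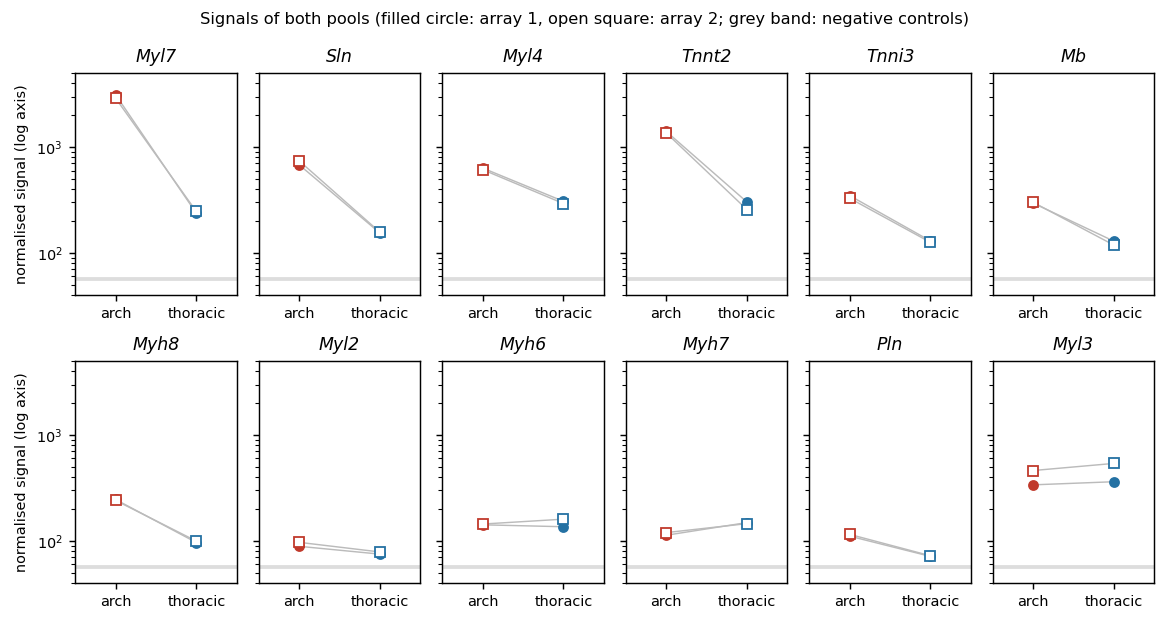
Normalised signal (log axis, no unit) of 12 cardiac and related members in the arch pool (red) and the thoracic pool (blue); filled circles are array 1, open squares array 2, and the grey band spans the medians of the negative controls. Myl7 falls off most steeply, with 3137 and 2910.0 in the arch against 236 and 246 in the thoracic aorta, while Myh7 and Myl3 lie slightly higher in the thoracic aorta.

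Fast skeletal genes gave the longest isoform class and 0 of 14 passed. The median log2 ratio was -0.15, with 10 genes below 0 and 4 above, and the class ran from -0.67 to 0.73. Of all genes compared 47.3% lay above 0. Several genes of the class, named above, had every signal under 2 times the negative controls. At the upper end stood Myl1, the essential light chain of fast fibres, with 288 and 292 in the arch, against 185 and 164 in the thoracic aorta (0.73 ± 0.14, 1.66-fold). Myh4, the IIb heavy chain of the fastest fibres, had 128 and 136 in the arch, against 77.8 and 84.6 in the thoracic aorta (0.70 ± 0.02, 1.62-fold). Both genes were above their thoracic signals on each array, at less than 2-fold. A second Myh4 probe did not pass the filter on dim probes and gave -0.03, and the deposited log ratios gave 1.49 for the first.

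At the lower end, Mybpc2, fast myosin-binding protein C, had 123 and 126 in the arch, against 205 and 193 in the thoracic aorta. The log2 ratio was -0.67 ± 0.08, 1.60-fold lower in the arch, and the deposited log ratios gave -1.05, the 1 member past the rule in that direction there, as were 0.338% of all genes. Tnnc2, the troponin C of fast muscle, had 194 and 205 in the arch, against 281 and 289 in the thoracic aorta (-0.51 ± 0.03, 1.43-fold). These were the members with the lowest ratios, and both arrays, which read the same 2 pools, put each of them lower in the arch. The partners of Tnnc2 in the fast troponin complex lay nearer 0, Tnni2 at -0.18 ± 0.11 and Tnnt3 at -0.13 ± 0.06.

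The rest of the fast class stayed within 1.5-fold. Actn3, the fast-fibre α-actinin of the Z-disc, had 0.33 ± 0.07 and Atp2a1, the calcium pump of fast muscle, 0.07 ± 0.17. The heavy chains Myh1 (IIx) and Myh2 (IIa) had -0.09 ± 0.02 and -0.18 ± 0.13. Ryr1 and Casq1, the release channel and the calcium buffer of the skeletal store, had -0.17 ± 0.10 and -0.19 ± 0.03. Myoz1 had -0.16 ± 0.03 and Mybph, a relative of myosin-binding protein C, -0.01 ± 0.09. Of the slow skeletal troponins, Tnnt1 had 257 and 251 in the arch, against 254 and 249 in the thoracic aorta (0.02), and Tnni1 had -0.12 ± 0.08.

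Myh8, the perinatal skeletal heavy chain, passed on 1 of its 5 probes. The probe described as the 3′ end of the perinatal message had 246 and 241 in the arch, against 96.1 and 99.2 in the thoracic aorta, a 2.49-fold difference (1.32 ± 0.05). The other 4 probes, from clones of newborn and embryonic head and from an extraocular muscle myosin, had log2 ratios between -0.02 and 0.04, and 1 of them passed the filter on dim probes. With the median of the probes that passed the filter, Myh8 had 0.65 and was no longer counted, leaving 6 members where 0.373% of all genes passed. Skeletal heavy chain messages are close in sequence, so which of these genes the probe read is uncertain.

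**Figure D3:**
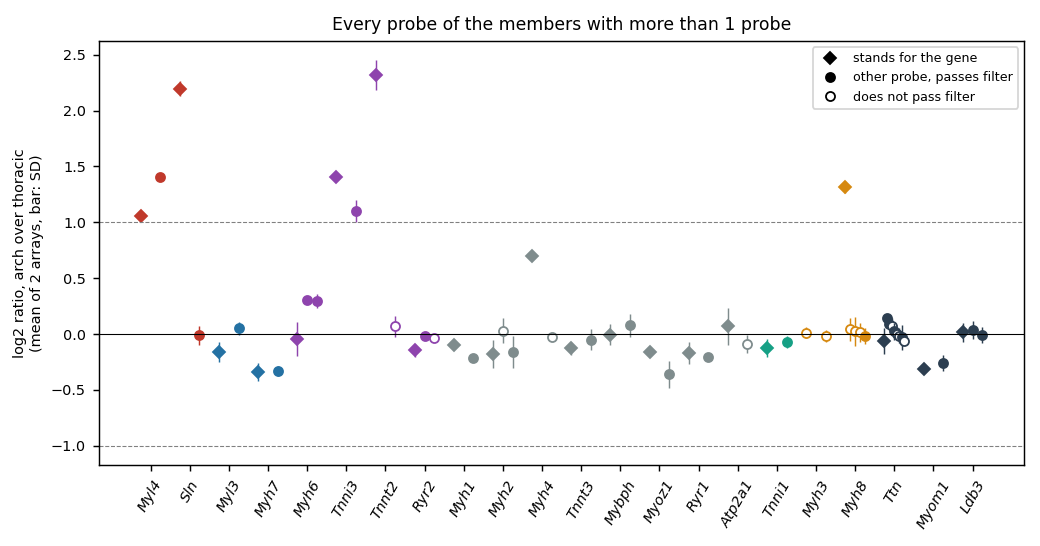
Log2 ratio, arch over thoracic, of each probe of the 22 members with more than 1 probe, as the mean and SD of 2 arrays; diamonds stand for the gene, filled circles are other probes past the filter on dim probes, open circles did not pass, and dashed lines mark 2-fold. The probes of Sln (2.20 and -0.01) and Myh8 (1.32 and -0.02 among those that passed) lie far apart, and those of Myl4 and Tnni3 all lie above 1.

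Of the 10 genes shared by heart and skeletal muscle, Mb passed. It encodes myoglobin, the oxygen store of heart and oxidative muscle, and had 295 and 299.9 in the arch, against 129 and 118 in the thoracic aorta (2.42-fold, 1.27 ± 0.10). Acta1, skeletal actin, had 13812 and 13159 in the arch, against 12499 and 13524 in the thoracic aorta (0.05 ± 0.13), and its arrays pointed in opposite directions. Tcap, the titin cap of the Z-disc, had 11783 and 11278 in the arch, against 9508 and 10119 in the thoracic aorta (0.23 ± 0.11, 1.18-fold). Both arch signals of Tcap were above both thoracic ones, by a small margin.

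Myom1 and Myom2 encode myomesins, which link myosin filaments at the M-band, and their ratios pointed in opposite directions. Myom1 had 1172 and 1198 in the arch, against 1428 and 1512 in the thoracic aorta (-0.31 ± 0.04), and its second probe gave -0.26. Myom2 had 129 and 121 in the arch, against 94.9 and 89.9 in the thoracic aorta (0.43 ± 0.01). Neither reached 1.5-fold. Ttn, the giant spring protein titin, had 9 probes, of which 5 passed the filter with log2 ratios from -0.07 to 0.14.

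Other genes of this class lay near 0. They were Actn2, the α-actinin of heart and skeletal Z-discs, at 0.10 ± 0.08, Ldb3, another Z-disc protein, at 0.01 ± 0.09, and Ckm, muscle creatine kinase, at 0.01 ± 0.13. Ckmt2, the mitochondrial creatine kinase of striated muscle, was not well above background in the thoracic aorta on either array. It had 71.6 and 68.6 in the arch, against 55.8 and 55.1 in the thoracic aorta, which gives only a bound of at least 1.11-fold higher in the arch. Without the offset of 50 in the background correction 10 members were counted as higher in the arch and 1 (Mybpc2) in the thoracic aorta, where 0.859% and 0.289% of all genes were. Ckmt2 is among those 10, and among the 10 of the deposited log ratios, although its thoracic signal allows only the bound.

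Dimness and probe choice set how far these values reach. Of the 43 members, 41 were well above background in both RNAs, and 16 had every signal under 2 times the negative controls. None of those 16 passed the size rule, and the offset of 50 draws the ratios of dim probes towards 0. Of the 18 members with more than 1 probe past the filter, 13 had all such probes within 0.25 log2 units. The exceptions were Sln, Myh8, Myh6, Myl4 and Tnni3. On both arrays 36 of the 43 members pointed the same way. That share was not counted over all genes, and both arrays carry the same pools, so it does not set the members apart. The size rule itself asks for the same direction on each array, and the 7 that passed also lay past 2-fold on each array alone.

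**Figure D4:**
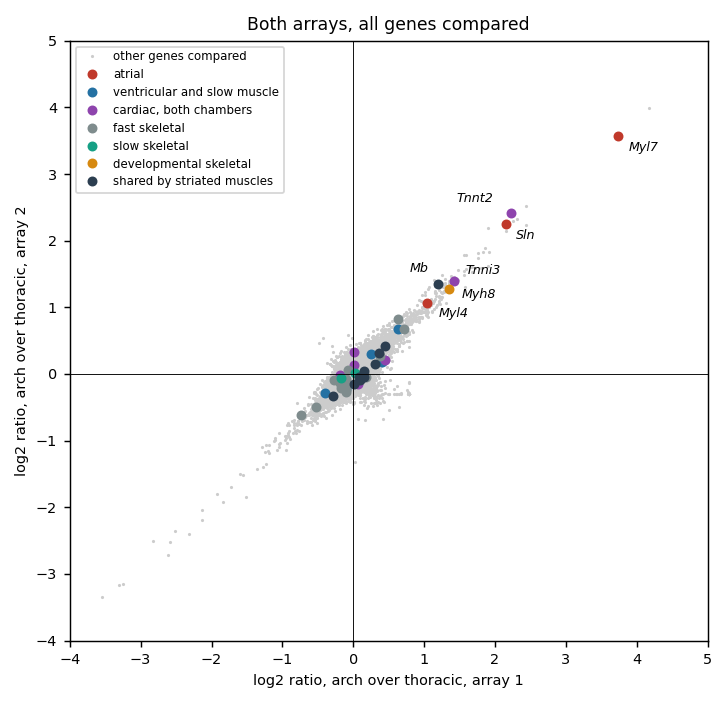
Log2 ratio, arch over thoracic, on array 1 (x axis) and array 2 (y axis) for all 22811 genes compared (grey) and the 43 sarcomere genes (coloured by isoform class). The 7 named genes lie along the diagonal in the upper right, from Myl4 at 1.05 and 1.07 to Myl7 at 3.73 and 3.57.

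Several members are neighbours in the genome. In the RefSeq annotation of GRCm38.p6, used here for the order of genes, the skeletal heavy chains Myh3, Myh2, Myh1, Myh4 and Myh8 follow each other on chromosome 11 with 0 protein-coding genes between neighbours. Along that row the log2 ratios were -0.18 for Myh2, -0.09 for Myh1, 0.70 for Myh4 and 1.32 for Myh8, each from 1 probe. A second Myh4 probe gave -0.03 and the other Myh8 probes -0.02 to 0.04, most of these below the filter on dim probes. Which heavy chain the Myh8 probe read is uncertain, so the row is not read as a rise. Tnnt1 and Tnni3 are neighbours on chromosome 7 and had 0.02 and 1.41. On chromosome 1, Tnni1 and Tnnt2 have 1 protein-coding gene between them and had -0.12 and 2.32. Cardiac Myh6 and Myh7 are neighbours on chromosome 14, with -0.05 and -0.34.

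Further genes of the same machinery were read from lists. Of 35 other sarcomere and calcium store genes, 32 could be compared and 1 passed towards the arch, with a median log2 ratio of 0.00. It was Csrp3, the muscle LIM protein of the Z-disc, with 138 in the arch on both arrays, against 67.3 and 70.7 in the thoracic aorta (1.00 ± 0.05), which lies on the 2-fold limit and did not pass under every alternative. Mylk2, the myosin light chain kinase of skeletal muscle, had the lowest ratio named there, with 215 and 251 in the arch, against 404 and 427 in the thoracic aorta (-0.84 ± 0.11).

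Among other heart muscle genes 0 of the 19 compared of 22 passed (0 to 2 across the alternatives), with 12 above 0 and a median of 0.05. Popdc2, a membrane protein of heart and skeletal muscle, had 0.89 ± 0.05, Smpx, a small muscle protein, 0.82 ± 0.08, and Ankrd1, a stress-responsive protein of heart muscle, 0.58 ± 0.04. Nppa, the natriuretic peptide made chiefly by the atrium, had 422 and 556 in the arch, against 428 and 517 in the thoracic aorta (0.04 ± 0.09), and its arrays pointed in opposite directions. Nppb, the related peptide, had 0.05 ± 0.02. Among other skeletal muscle genes, 0 of the 15 compared of 19 passed, 3 lay above 0 and the median was -0.05. Beside both lists, 47.3% of all genes compared lay above 0. Lmod3, an actin nucleator of skeletal thin filaments, had -0.40 ± 0.07.

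In bulk RNA, fewer cells of a type and less RNA per cell cannot be told apart. All 14 smooth muscle genes, markers of the media, were well above background in both pools. Acta2, Tagln and Myl9 were saturated, so their ratios are not measured, and Myh11, the smooth muscle myosin heavy chain, had 6532 and 6351 in the arch, against 6000.2 and 5611 in the thoracic aorta (0.15 ± 0.04). Of the 14 genes 0 passed. Their median was 0.17 with the saturated genes included, 0.12 with saturated probes left out, -0.04 without loess and -0.03 without array 1, so no direction is given for the list. Mesothelium and epicardium, the lining cells of chest and heart, had 8 of 10 markers higher in the arch, with 9 above 0 and 1 below. Their summed signals were 7236 and 6931 in the arch, against 2937 and 2882 in the thoracic aorta. Macrophage markers had 4 of 8 higher, with sums of 22763 and 22352 in the arch, against 7518 and 7491 in the thoracic aorta. Most of that gap was Cd5l, with 10133 and 9901 in the arch, against 560.1 and 619.9 in the thoracic aorta. Named after their values were seen, Adgre1 (-0.06), Csf1r (0.07) and Cd14 (-0.14) were near 0. Brown fat and endothelium each had 1 of 10 higher, with 6 and 10 of the 10 above 0. Of all genes compared, 0.473% were higher in the arch by the size rule and 47.3% lay above 0. Brown fat summed to 21166 and 20295 in the arch, against 14148 and 14012 in the thoracic aorta, and endothelium to 2699.6 and 2654 in the arch, against 1743 and 1684 in the thoracic aorta. No marker of these 4 lists was below background, and their part in the sarcomere ratios was not tested.

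**Figure D5:**
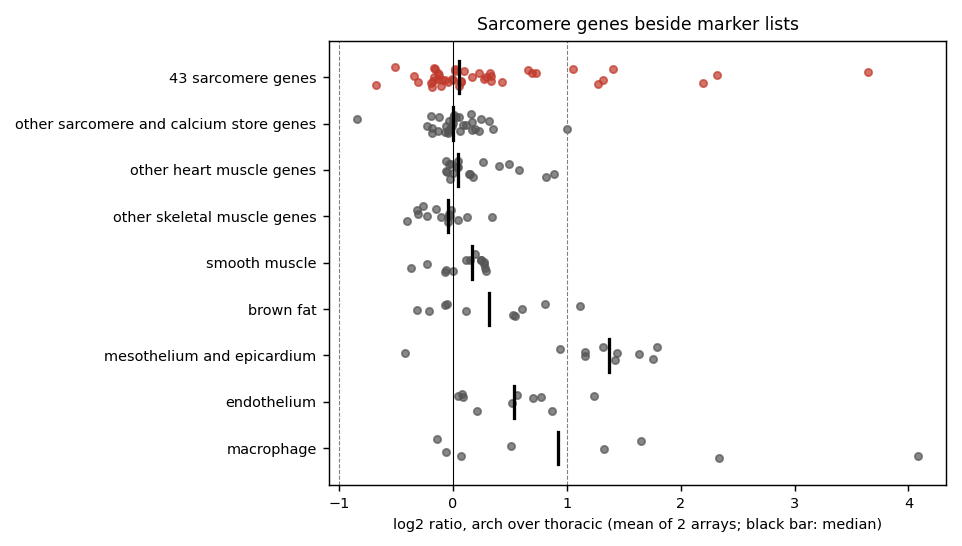
Log2 ratio, arch over thoracic (x axis, mean of 2 arrays), of each gene compared in the sarcomere set (red) and in the lists of related genes and markers of other cell types (grey), with a black bar at each median and dashed lines at 2-fold; saturated smooth muscle genes are included. Mesothelium and epicardium (median 1.37) and macrophage (0.92) lie highest, and the heart muscle, skeletal muscle and other sarcomere lists centre on 0.05, -0.05 and 0.00.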

How the data were processed

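The scanner tables hold intensity values per spot, deposited without normalization between dyes in the mean signals used here. Per the file headers the software was Agilent Feature Extraction 8.1.1.1. Version 9.1.1.1 stands in the submitters' processing notes. The deposited log10 ratios, red over green of background-subtracted and dye-normalized signals per the file headers, served as an alternative, as did the authors' series table of log10 ratios (correlation 1.00 with them after turning, medians 0.00). Each RNA was well above background at 76.5% to 82.6% of 41534 gene spots, with median raw signals from 132.4 to 142.2.

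Computed here, with limma 3.58.1 in R 4.3.3: normexp background correction with an offset of 50, loess within each array, removal of control and outlier spots (8 and 5 gene spots), averaging per probe, array 1 turned to arch over thoracic, then the mean of both arrays. Per-channel signals are after Aquantile. Each gene was read from its brightest probe that Feature Extraction called well above background in 1 RNA or both, on both arrays. Where 1 RNA missed that limit on both arrays, the fold is a bound: the other RNA is divided by the dim probe's signal or the lowest called signal, whichever is greater. The steps were tested on simulated arrays.

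Both arrays carry the same 2 pools and were counted as 1 replicate, so only the size rule was applied. The same rule on the dyes passed 0 genes. All 44 members are named, with up to 4 genes considered per further list (those that passed first, then by size), Acta2, Myh11, Tagln, Nppa and Nppb. The members and lists were chosen with earlier results of these data known. No source used here gives the build behind the array's gene names, and symbols were updated through RefSeq. The 13 alternatives varied background, dye normalization, dim and saturated probes, probe choice, naming, arrays used and the size limit. No probe or protein sequences were used here.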

Additional observations from a re-analysis of the deposited data

How the results depend on the processing

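The count of members higher in the arch was 7 and ranged from 6 to 10 across the alternatives. It stayed at 7 without loess, on either array alone, and with the filter on dim probes dropped or made stricter. Leaving out saturated probes and using only the files' names also gave 7 but could not change the count. Of the member probes 0 were saturated, and the files already named every member so. It was 10 without the offset, with the deposited log ratios and with the series table, where Pln, Myh4 and Ckmt2 joined (Ckmt2 with only a bound), and all genes passing were 0.859%, 1.02% and 1.02%. It was also 10 under a 1.5-fold limit, which 1.4% of all genes passed, and 6 without background subtraction (Myl4 lost) or with the median over probes (Myh8 lost). The count higher in the thoracic aorta was 0, and became 1 without the offset, with the deposited log ratios, with the series table and under the 1.5-fold limit. That member was Mybpc2, at log2 ratios of -1.01, -1.05, -1.05 and -0.67. The median over members was 0.05, with a range of 0.01 to 0.08 across alternatives, which leaving out either array also gave, while the counts were 7 and 0 on each array alone. Myl7 ranged from 3.49 to 3.98, Tnnt2 from 2.20 to 2.59 and Tnni3 from 1.22 to 1.96. Each ratio already pairs arch with thoracic aorta within an array, but no paired test was possible because both arrays share the same pools. Signal near the negative controls limits the 16 dimmest members, and 1 pool per segment leaves the spread between mice unmeasured.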
